A study of Mus musculus with 12 samples.

Results

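Mice that had spent longer in constant darkness were compared with mice that had spent less, in a study of genes with a daily rhythm in the hippocampus, a part of the brain needed for learning places and events. Total RNA of the hippocampus came from 12 adult male wild-type mice, all moved from evening onwards into darkness to keep out effects of light, and each mouse had its own 1-colour (Cy3) Agilent array. Strain and exact age are not given in the sources used here. The shorter group was the 6 arrays titled CT18 (30 h in darkness) or CT0 (36 h), and the longer group was the 6 arrays titled CT6 (42 h) or CT12 (48 h), with 3 mice at each of the 4 circadian times (CT, the hour of the animal's own day). The groups were set by the hours in darkness alone, and these 12 libraries, 6 and 6, are all 12 of the series. Each circadian time was sampled at a single number of hours in darkness, within a single cycle, so hours in darkness and time of the circadian day cannot be told apart in any value below. The 6 arrays of a group are 2 circadian times, not replicates of a single condition, and no group was kept in light.

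Most cells carry a circadian clock. The activators ARNTL (BMAL1) and CLOCK switch on genes whose promoters hold an E-box, among them the genes of the repressors PER, CRY, CIART and REV-ERB (Nr1d1, Nr1d2), and the product of each repressor then lowers the activity of the loop. Outside the master clock of the hypothalamus, the loop is also moved by body temperature, feeding and adrenal steroids, which drive cold-inducible, heat shock and glucocorticoid-responsive genes. The endoplasmic reticulum (ER) folds secreted and membrane proteins with chaperones such as BiP (Hspa5), whose genes are switched on through an ER stress element when unfolded protein accumulates.

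Promoters are shown for Ciart, which rose with the smallest p, and for the 5 of 9 fallen ER folding genes whose window holds the ER stress element, chosen because they hold it. Each line gives the 250 bases before the start site, 5′ to 3′ in the gene's own direction, from RefSeq on build GRCm38.p6. Capitals mark the E-box (CACGTG) in Ciart and the ER stress element (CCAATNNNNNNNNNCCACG, on either strand) in the others.
Ciart (chr3:95882229-95882478, - strand): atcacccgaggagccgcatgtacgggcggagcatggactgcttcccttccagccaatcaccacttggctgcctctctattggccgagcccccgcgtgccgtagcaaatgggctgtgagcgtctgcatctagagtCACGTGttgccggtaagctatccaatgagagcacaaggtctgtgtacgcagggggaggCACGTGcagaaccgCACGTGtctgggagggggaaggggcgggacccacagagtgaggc
Hspa5 (chr2:34771840-34772089, + strand): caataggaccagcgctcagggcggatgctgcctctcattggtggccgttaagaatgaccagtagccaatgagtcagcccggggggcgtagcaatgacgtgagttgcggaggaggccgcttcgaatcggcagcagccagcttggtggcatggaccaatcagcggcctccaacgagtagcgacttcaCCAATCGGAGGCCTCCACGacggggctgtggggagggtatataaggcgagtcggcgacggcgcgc
Pdia6 (chr12:17266339-17266588, + strand): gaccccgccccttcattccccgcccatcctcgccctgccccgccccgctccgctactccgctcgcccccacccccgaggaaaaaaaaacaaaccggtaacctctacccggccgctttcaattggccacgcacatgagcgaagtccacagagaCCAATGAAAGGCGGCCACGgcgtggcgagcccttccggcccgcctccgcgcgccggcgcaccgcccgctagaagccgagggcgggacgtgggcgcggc
Derl3 (chr10:75893148-75893397, + strand): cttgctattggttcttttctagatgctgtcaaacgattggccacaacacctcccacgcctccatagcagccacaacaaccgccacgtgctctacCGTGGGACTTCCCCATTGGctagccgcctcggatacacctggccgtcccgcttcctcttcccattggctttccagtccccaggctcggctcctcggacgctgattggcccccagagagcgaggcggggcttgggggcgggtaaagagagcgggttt
Calr (chr8:84846932-84847181, - strand): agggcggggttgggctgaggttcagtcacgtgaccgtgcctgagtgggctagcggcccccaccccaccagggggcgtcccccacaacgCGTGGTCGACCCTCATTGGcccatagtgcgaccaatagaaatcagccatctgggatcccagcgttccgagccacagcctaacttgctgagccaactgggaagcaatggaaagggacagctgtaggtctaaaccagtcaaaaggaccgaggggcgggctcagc
Hsp90b1 (chr10:86705445-86705694, - strand): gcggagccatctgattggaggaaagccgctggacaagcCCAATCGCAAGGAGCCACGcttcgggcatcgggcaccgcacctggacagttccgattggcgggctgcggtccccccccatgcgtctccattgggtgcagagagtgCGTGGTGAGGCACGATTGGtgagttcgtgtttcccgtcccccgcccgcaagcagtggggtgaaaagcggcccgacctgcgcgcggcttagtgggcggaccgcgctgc
Windows of 250 bases before and 50 after the start were searched on both strands, and an E-box can share letters with the end of an ER stress element. The Ciart window holds 3 E-boxes, which begin 116, 58 and 44 bases before the start. An E-box was in 7.15% of all 32851 windows and in 11% of the 12570 tested genes with a window. It was in the window of 2 of the 10 higher genes with a window (Ciart and Slamf9) and of 3 of 26 lower ones. The exact spaced ER stress element was in 0.119% of all windows and in 20 of the 12570 tested genes (0.159%). It was in the window of 5 of 26 lower genes and of 0 of 10 higher ones, and in 9 of 21 members of the ER list with a window. The other 4 of those 9, Canx, Creld2, Dnajc3 and Syvn1, did not pass in longer minus shorter darkness, and Sdf2l1 and Pdia3 fell with no match in the window. Hsp90b1 holds it at 2 places, the farther one 212 bases before the start, and Hspa5 holds it 65 bases before the start. A heat shock element core (GAANNTTC) was in 7.86% of all windows and in 3 of 26 lower genes (Chordc1, Mkks and Saysd1), and a D-box (TTANGTAA) in 2.32% of all windows and in 0 of 10 higher and 1 of 26 lower genes. These matches describe letters in a window and not binding.

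Values are log2 signal with the 75th percentile of each array set to 0, so 0 is the level of a fairly bright probe and 1 unit is a doubling. Between 59.3% and 77.1% of spots per array lay well above background. The library labelled CT12 mouse 11 stood apart: across genes it correlated at 0.945 to 0.965 with the rest, against at least 0.984 among the other 11, its cerebellum markers (8 measured) had a median 5.29 above their means over the arrays and its excitatory neuron markers (7 measured) a median 4.51 below. It belongs to the longer group, so counts and lists are given with and without it. All 54 genes called in longer minus shorter darkness were called without it too, and single genes are given without it where the value is of note or a call is lost. Choroid plexus markers were 1.86 to 3.69 above their means in 5 libraries, 2 in the shorter group (CT18 mouse 14, CT0 mouse 1) and 3 in the longer (CT6 mouse 7, CT12 mouse 10, CT12 mouse 11), and 1.7 to 2.31 below in the other 7, so their summed level ran from 1.15 to 8.54 in the shorter group and from 1.26 to 8.06 in the longer. CT0 mouse 1 also had a local background of 101, against 25.3 to 37.8 on the others. The extraction software graded that array as one to evaluate and the others as in range. The slides held 1 array of each time, so the comparison is balanced over the 3 slides. Array position followed the circadian time on every slide, with positions 1 and 4 in the shorter group and 2 and 3 in the longer, and the effects of position and time cannot be told apart. In RNA from whole tissue, fewer cells of a type and less RNA per cell cannot be told apart either.

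After longer darkness the hippocampus held more RNA of the clock repressors Ciart and Nr1d1 and of the cold-inducible Cirbp and Rbm3, and less RNA of 9 ER chaperone and folding genes. Of 24089 genes, 54 (0.224%) differed between the groups at an adjusted p under 0.05 (limma, Benjamini-Hochberg over all genes): 13 were higher after longer darkness (0.054%) and 41 were lower (0.17%). Among the lower genes, Saysd1 and an unnamed transcript have the same probe position (chromosome 14, 20894894 to 20894953, mm9) and are counted separately. The size of the 54 differences ran from 0.37 to 1.75 log2 units, with a median of 0.73. The 1.75 is that of an unnamed transcript well above background on 3 of 6 shorter and 0 of 6 longer arrays. The next, 1700121C10Rik (-1.64), was well above background on 3 of 6 longer arrays. The upper end of the range therefore rests on dim values and is uncertain. All 54 differences had the same sign on each of the 3 slides, which was so for 42.8% of all genes. The 6 longer and 6 shorter arrays did not overlap for 42 of the 54, against 1.49% of all genes (359). Both shares come from the arrays that gave the calls, and calling favours them. They describe the called genes and are not separate support.

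The number of calls depended on single libraries. Leaving out CT12 mouse 11 gave 175 calls (44 higher, 131 lower), and all 54 genes remained among them. Leaving out CT12 mouse 12 gave 154 (75 higher, 79 lower, 48.7% higher), with 53 of the 54 among them. It was 4 without CT18 mouse 16, 1 (Ciart) without CT6 mouse 7, 8 without CT6 mouse 6, 14 without CT18 mouse 14 or CT0 mouse 1, 15 without CT0 mouse 2, 20 without CT0 mouse 3, 23 without CT6 mouse 5, 32 without CT18 mouse 15 and 47 without CT12 mouse 10. With each array centred on its median, the count was 2 (1 higher, 1 lower, so 50% higher in place of 24.1%), and Ciart was the only gene described below that passed. The median standard error over all genes was then 0.17, against 0.12. With no filter on dim probes it was 12 (5 higher, 7 lower, 41.7% higher), and with 2 means of 6 arrays in place of 4 means it was 7 (3 higher, 4 lower, 42.9% higher). Of the genes described below, Nr1d1, Cirbp, H2bc6 and H3c15 passed in that last fit. With the slide as a block it was 47, with 40 of the 54 among them. At an unadjusted p under 0.05, 2654 genes passed. P-values measure the spread between mice of 1 time.

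**Figure D1:**
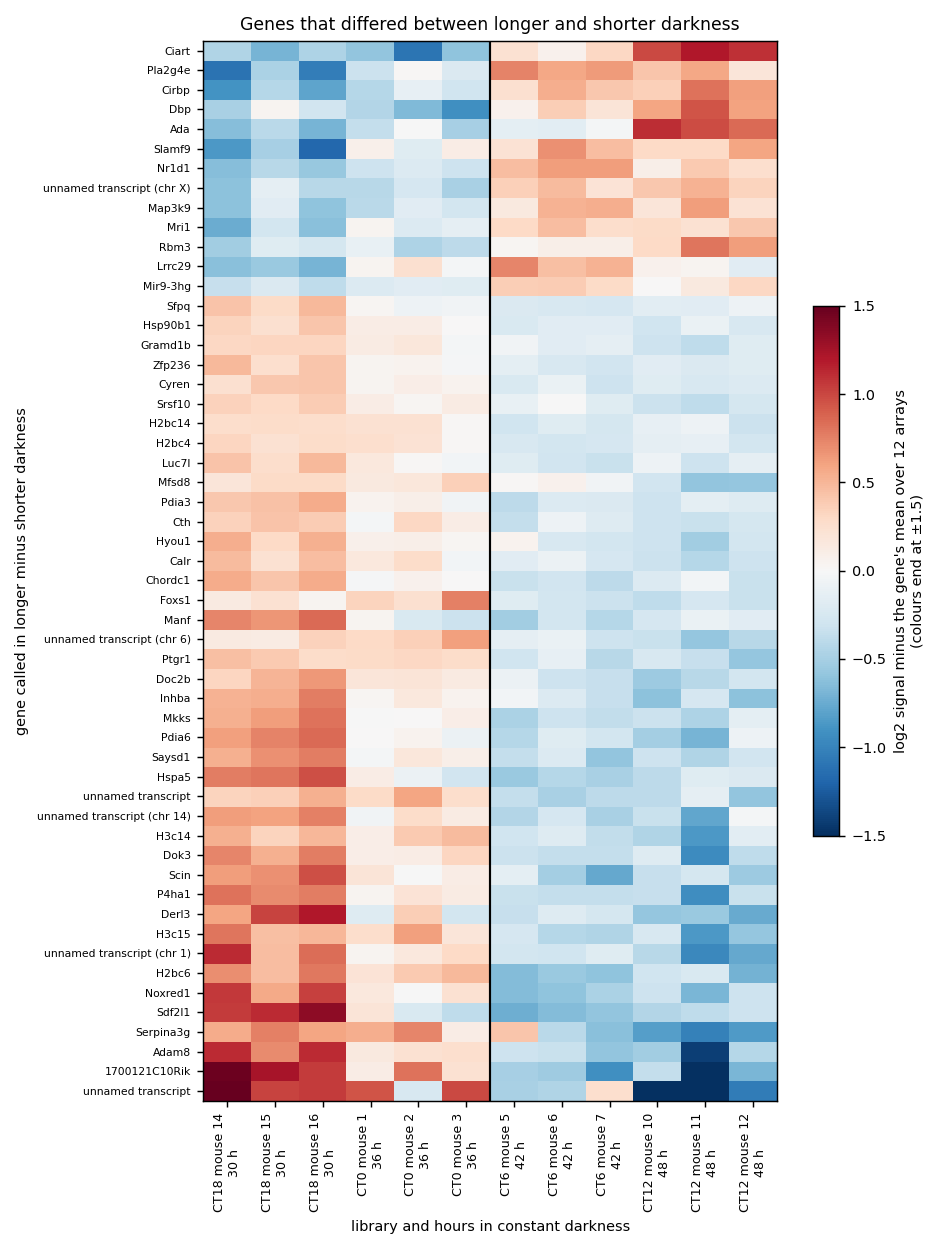
Heat map of the 54 genes called in longer minus shorter darkness (rows, ordered by the difference) in the 12 libraries (columns, ordered by hours in darkness; the line parts the groups). Colour is log2 signal minus the gene's mean over 12 arrays. The 13 higher genes are mostly blue on the left and red on the right, with exceptions such as Ada, which lies slightly below its mean at 42 h. The mean at 30 h is the highest of the 4 for 39 of the 41 lower genes, a pattern that calling favours. Counted in the direction of each gene's own difference, it holds for 11327 of all 24089 genes.

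Among the core clock genes, 2 of the 10 measured repressors passed, Ciart and Nr1d1, and both rose, beside 0.054% of all genes. Ciart encodes a repressor that binds ARNTL and holds its targets down. Its probe lies on chromosome 3 at 95682433 to 95682492 (mm9, the build of the array). The signal was -3.36, -3.61 and -3.37 at 30 h and -3.50, -4.01 and -3.52 at 36 h. It was -2.68, -2.85 and -2.60 at 42 h and -1.92, -1.71 and -1.82 at 48 h. The groups did not overlap, and the 3 libraries at 48 h were the highest of all 12. The difference was 1.30 ± 0.10 (SE) log2 units, 2.46-fold higher after longer darkness (adjusted p = 0.00481, limma). It passed without each of the 12 libraries in turn, with a largest adjusted p of 0.0354. It did not pass as 2 means of 6 arrays (adjusted p = 0.084), a fit that counts the step between 42 and 48 h as spread. Without CT12 mouse 11 the difference was 1.27 (adjusted p = 0.0076).

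Nr1d1 encodes REV-ERBα, a nuclear receptor that represses Arntl. The probe spans chromosome 11 from 98630526 to 98631028. The signal was -0.17, 0.05 and -0.10 at 30 h, 0.16, 0.26 and 0.16 at 36 h, 0.93, 1.10 and 1.09 at 42 h and 0.56, 0.86 and 0.72 at 48 h. The highest libraries were those at 42 h, and the groups did not overlap. The difference was 0.81 ± 0.07 (SE), 1.76-fold higher (adjusted p = 0.00801). The call was lost without CT6 mouse 7 (adjusted p = 0.0503) and held for the other 11 omissions. With CT12 mouse 11 left out the difference was 0.78 (adjusted p = 0.0076).

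The other repressors did not pass. Nr1d2, the paralog REV-ERBβ, ranged from 1.06 to 1.51 in the shorter group and from 1.37 to 2.39 in the longer, a difference of 0.46 ± 0.10 (SE) with an adjusted p of 0.107. The highest of these values, 2.39, was that of CT12 mouse 11, and without it the difference was 0.37 with an adjusted p of 0.029. Per1, Per2 and Per3, the period genes, had lower means at 36 and 42 h than at 30 and 48 h. Per2 had means of -0.58 ± 0.08 at 30 h, -1.29 ± 0.09 at 36 h, -1.46 ± 0.06 at 42 h and -0.83 ± 0.22 at 48 h (SD, n = 3). Its longer minus shorter difference was -0.21 ± 0.08 (SE, adjusted p = 0.367), with the higher times CT18 and CT12 on opposite sides of the comparison. For Per3 the difference was 0.10 ± 0.09 (adjusted p = 0.722), and for Per1 0.28 ± 0.09 (adjusted p = 0.293). Cry1 had its lowest mean at 42 h (-5.34 ± 0.43, SD) and its highest at 48 h (-3.82 ± 0.22), with a difference of 0.01 ± 0.18 (SE, adjusted p = 0.994). Its probe was well above background on 4 of 6 longer arrays, so the depth of the low is uncertain. Across the 10 repressors, 9 differences lay above 0 and the median was 0.17, beside 0.00 over all genes.

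Of the 4 activators none passed. Arntl, the gene of BMAL1, had means of 1.09 ± 0.03 at 30 h, 1.41 ± 0.19 at 36 h, 1.19 ± 0.10 at 42 h and 0.71 ± 0.09 at 48 h (SD, n = 3). Its difference was -0.30 ± 0.08 (SE, adjusted p = 0.174). Clock ran from 0.00 to 0.11 in the shorter group and from -0.27 to -0.08 in the longer. The groups did not overlap, the difference was -0.23 ± 0.05 (SE) and the adjusted p was 0.142. All 4 activators had differences below 0 (median -0.27). Without CT12 mouse 11 this was so for 2 of 4 (median -0.10). Npas2 was -5.75 in that library, against -3.31 to -2.37 in the others.

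Dbp, a D-box activator that reads out the clock, passed. Its shorter group ran from 4.06 to 5.02 with a median of 4.52, and its longer group from 5.04 to 5.92 with a median of 5.46. The groups touched without overlapping, CT18 mouse 15 being the highest of the shorter and CT6 mouse 5 the lowest of the longer. The difference was 0.92 ± 0.12 (SE), 1.89-fold higher (adjusted p = 0.0218). A second probe gave 0.99. The call held in 6 of 12 omissions of a library (largest adjusted p 0.0988), and without CT12 mouse 11 it was 0.86 (adjusted p = 0.0276). Of the 7 measured D-box and ROR factors Dbp was the only gene to pass. Nfil3, which represses the same D-boxes, was -0.46 ± 0.14 (SE, adjusted p = 0.271), and Tef and Hlf, the other D-box activators, -0.11 and 0.04. Rora, a receptor that activates Arntl, had a difference of 0.79 ± 0.25 (adjusted p = 0.266), with 3.08 in CT12 mouse 11 and 0.50 to 2.11 elsewhere. None of the 9 measured clock kinases and ubiquitin ligases and none of the 13 clock output genes passed (medians 0.03 and 0.16).

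**Figure D2:**
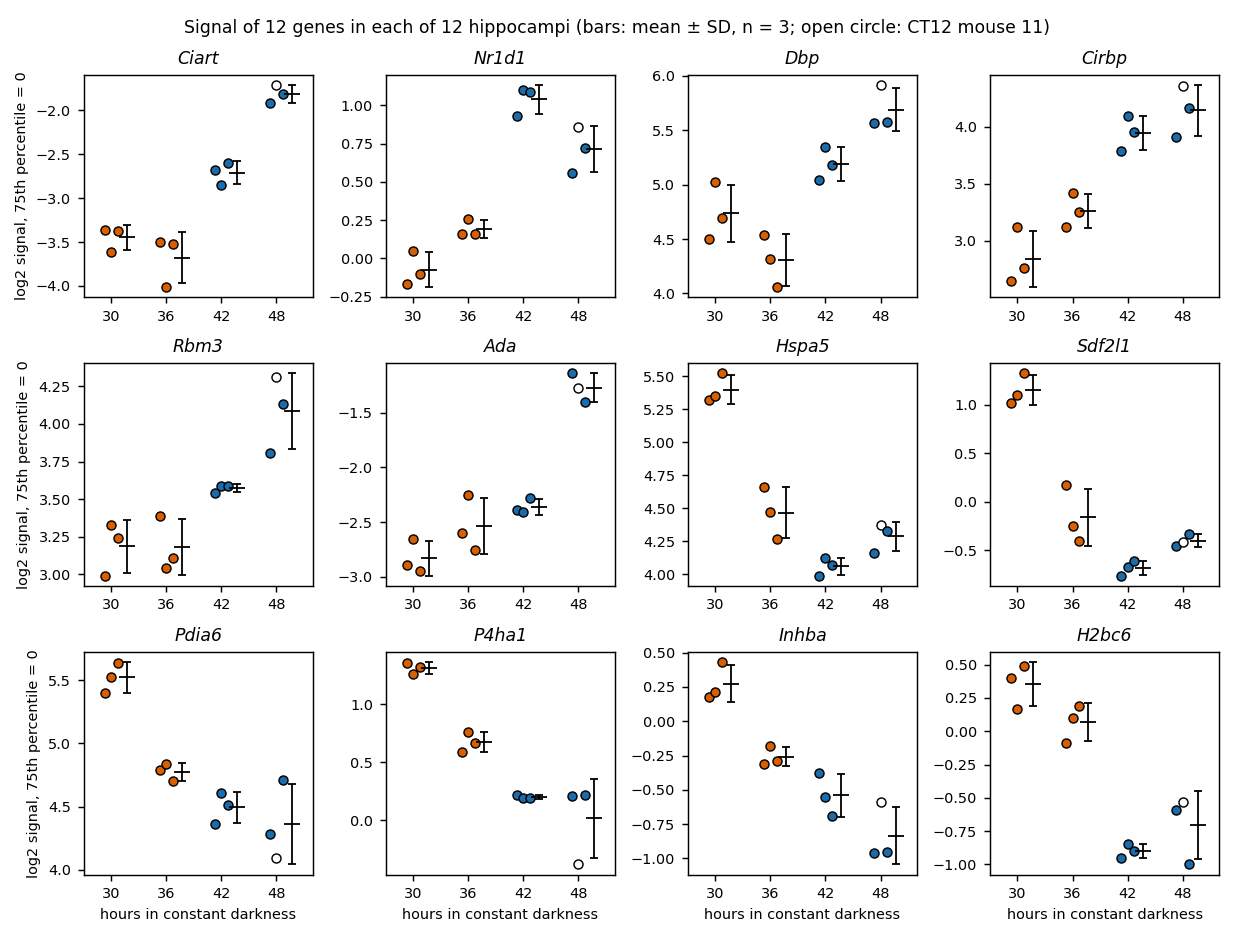
Signal of 12 genes (log2, 75th percentile of the array at 0) against hours in darkness, 1 point per mouse, orange for the shorter and blue for the longer group, the open circle CT12 mouse 11; bars are mean ± SD (n = 3). Ciart, Dbp, Cirbp and Rbm3 are highest at 48 h and Nr1d1 at 42 h, while Hspa5, Sdf2l1 and Pdia6 are highest at 30 h and lie far lower at the other 3 times.

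Cirbp and Rbm3, which encode RNA-binding proteins induced by mild cooling, both rose. Cirbp (chromosome 10, 79634274 to 79634333, mm9) was 2.65, 3.12 and 2.76 at 30 h, 3.12, 3.42 and 3.25 at 36 h, 3.79, 4.09 and 3.95 at 42 h and 3.91, 4.36 and 4.16 at 48 h. The mean was higher at each later time, and the groups did not overlap. The difference was 0.99 ± 0.11 (SE), 1.99-fold higher (adjusted p = 0.0128), with 0.97, 0.95 and 1.05 on the 3 slides. It was lost without CT18 mouse 16, CT6 mouse 6 or CT6 mouse 7 (largest adjusted p 0.0647), and without CT12 mouse 11 it was 0.93 (adjusted p = 0.0167). Rbm3 ranged from 2.99 to 3.39 in the shorter group (median 3.17) and from 3.54 to 4.31 in the longer (median 3.70). These groups did not overlap either. The difference was 0.64 ± 0.10 (SE, adjusted p = 0.0496), which passed in 2 of 12 omissions and not with the slide as a block (adjusted p = 0.0633). Of 3 Rbm3 probes, the weakest response was -0.05 and the strongest 0.68, so the probes disagree. These 2 genes are the whole list, and the 13 higher genes are 0.054% of those tested.

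The genes of ER protein folding were lower after longer darkness. Of 24 measured members of the ER chaperone and unfolded protein list, 9 fell and 0 rose, beside 0.17% and 0.054% of all genes. The differences were below 0 for 21 of 24, with a median of -0.35. Without CT12 mouse 11 again 9 fell, with a median of -0.35. The number called was 0 with CT6 mouse 7 left out and 1 with CT18 mouse 16 left out. It was 2 on leaving out CT0 mouse 1, CT0 mouse 2 or CT6 mouse 6, and 3 for CT18 mouse 14, CT18 mouse 15, CT6 mouse 5 or CT12 mouse 10. It was 4 for CT0 mouse 3 and 10 for CT12 mouse 12. Over these 12 omissions the median ran from -0.39 to -0.31. With each array centred on its median 0 passed, and 17 of 24 were below 0 (median -0.29). With the slide as a block 5 passed (Hspa5, Sdf2l1, Pdia3, Hyou1 and Derl3), while Pdia6 had an adjusted p of 0.0566 and Hsp90b1, Calr and Manf of 0.057. With 2 means the adjusted p of the 9 ran from 0.135 for Calr to 0.386 for Manf.

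Hspa5 encodes BiP, the main chaperone of the ER lumen. Its probe lies on chromosome 2 at 34631913 to 34631972 (mm9). The signal was 5.32, 5.35 and 5.52 at 30 h, 4.66, 4.47 and 4.27 at 36 h, 3.99, 4.12 and 4.07 at 42 h and 4.16, 4.37 and 4.33 at 48 h. The 3 libraries at 30 h stood above all others, and the groups overlapped slightly, since CT0 mouse 3 lay below the highest library at 48 h. The difference was -0.76 ± 0.08 (SE), 1.69-fold lower (adjusted p = 0.0128). It was lost without CT18 mouse 16 or CT6 mouse 7 (largest adjusted p 0.0612), and without CT12 mouse 11 it was -0.78 (adjusted p = 0.0116).

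Sdf2l1, a partner of BiP, was 1.02, 1.10 and 1.32 at 30 h, 0.17, -0.25 and -0.40 at 36 h, -0.76, -0.67 and -0.61 at 42 h and -0.46, -0.41 and -0.33 at 48 h. The step from 30 to 36 h was the largest of the 3 and the groups overlapped at 36 and 48 h. The difference was -1.03 ± 0.10 (SE), 2.05-fold lower (adjusted p = 0.00801), and it was lost only without CT6 mouse 7 (adjusted p = 0.0503). Among the disulfide isomerases, which form and reshuffle disulfide bonds, Pdia6 ranged from 4.70 to 5.64 in the shorter group and from 4.09 to 4.71 in the longer, a difference of -0.72 ± 0.11 (SE, adjusted p = 0.032). Pdia3 did not overlap between the groups (1.87 to 2.48 against 1.53 to 1.78) and differed by -0.49 ± 0.07 (SE, adjusted p = 0.0225). Pdia4 was -0.63 without passing (adjusted p = 0.126), and P4hb was -0.04.

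Of the lectin chaperones that hold glycoproteins, Calr fell, from 4.04 to 4.56 in the shorter group to 3.65 to 3.99 in the longer, with no overlap and a difference of -0.53 (adjusted p = 0.0306), while Canx had a difference of 0.01 (adjusted p = 0.994). The 2 genes share the ER stress element in the searched window. Hsp90b1, the HSP90 of the ER, fell by 0.40 on the log2 scale with no overlap (adjusted p = 0.0388). Hyou1, which exchanges nucleotide on BiP, was -0.52 (adjusted p = 0.0479). Manf, a secreted factor held in the ER by BiP, was -0.58 (adjusted p = 0.0281). Derl3, a member of the channel that takes misfolded proteins out of the ER, was -0.91 (adjusted p = 0.0312). The regulators of the response did not pass. Xbp1, whose spliced form drives these genes, was -0.36 (adjusted p = 0.179), Atf6 -0.19, Atf4 -0.05 and Ddit3 -0.05. Spliced and unspliced Xbp1 were not told apart here.

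The fall of these chaperones lay mostly between the first and second times. For 7 of the 9 that fell, the largest step was from 30 to 36 h, and 30 h had the highest mean of the 4 for all 9. Over all 24 members the median deviation from each gene's mean was 0.27 to 0.44 in the 3 libraries at 30 h, -0.10 to 0.00 in those at 36 h and -0.26 to -0.11 in the 6 later ones. The 36 h mean was above both later means, or below both where the difference was above 0, for 16 of 24 members. It was above both for all 9 that fell. This timing was not particular to the chaperones. Among all 41 lower genes, 30 h had the highest mean for 39, and the 36 h mean was above both later means for 41. Counted in the direction of each gene's own difference, these patterns held for 11327 and 12979 of all 24089 genes. Calling a gene lower favours both patterns, so the counts describe the called genes alone. The largest step was from 30 to 36 h for 23 of the 41, beside 6781 of all 24089 genes.

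Of 19 measured cytosolic heat shock genes, 1 fell, beside 0.17% of all genes, and 17 were below 0 (median -0.21). It was Chordc1, a co-chaperone of HSP90, with 2.07 to 2.65 in the shorter group and 1.69 to 2.05 in the longer. The groups did not overlap, and the difference was -0.53 ± 0.07 (SE, adjusted p = 0.0184), which passed in 4 of 12 omissions. Hspa1a, the inducible HSP70, was -0.59 (adjusted p = 0.148) and Hsph1 -0.49 (adjusted p = 0.164). Without CT12 mouse 11, 3 of 19 fell (median -0.27).

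**Figure D3:**
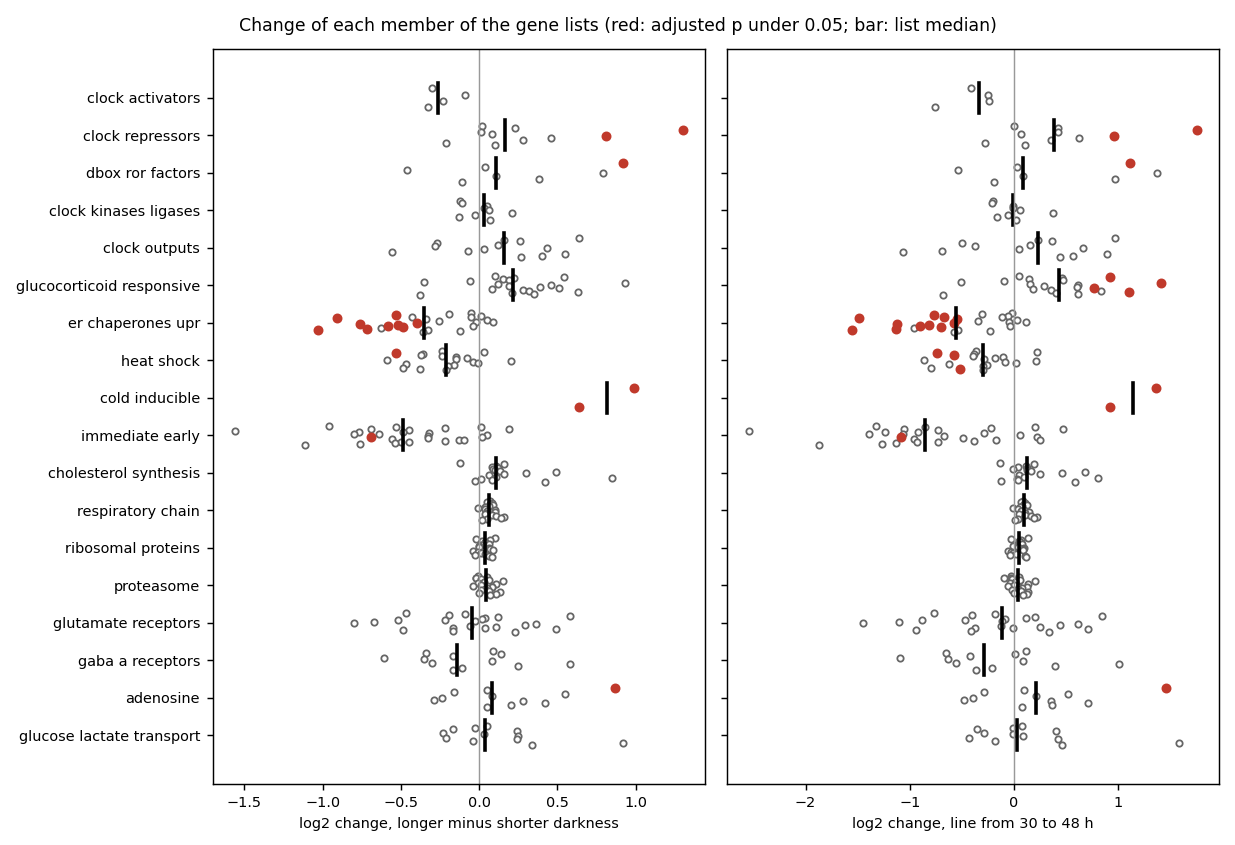
Log2 change of each measured member (points, red where adjusted p is under 0.05) of 18 gene lists for longer minus shorter darkness (left) and for the straight line from 30 to 48 h (right), with the list median as a bar. The ER chaperone list lies mostly below 0 (21 of 24 and 22 of 24), the glucocorticoid-responsive list mostly above (17 of 20 in both), and the ribosomal, proteasome and respiratory chain lists stay close to 0.

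Of 27 genes induced by neuronal activity 1 fell, beside 0.17% of all genes. Inhba, the activin A subunit that synaptic activity induces, was 0.18, 0.21 and 0.43 at 30 h, -0.31, -0.18 and -0.29 at 36 h, -0.38, -0.55 and -0.69 at 42 h and -0.96, -0.59 and -0.95 at 48 h. The mean was lower at each later time and the groups did not overlap. The difference was -0.69 ± 0.09 (SE), 1.62-fold lower (adjusted p = 0.0218), and -0.75 without CT12 mouse 11 (adjusted p = 0.0086). It passed in 5 of 12 omissions. Bdnf, a neuronal growth factor, was -0.53 ± 0.13 (SE, adjusted p = 0.148). Dusp6, which switches off ERK, did not overlap between the groups and was -0.69 ± 0.20 (SE, adjusted p = 0.222), or -0.49 without CT12 mouse 11, where it passed (adjusted p = 0.0423). Egr2 and Arc were -1.56 and -0.96 (adjusted p = 0.4 and 0.367). Of the 27 genes, 23 were below 0 with a median of -0.49, and without CT12 mouse 11 the median was -0.26. Markers of excitatory neurons moved beside it: all 7 were below 0 with a median of -0.91, which was -0.06 without that library. Their summed level was 5.88 to 6.22 in the shorter group, 5.42 to 6.19 in the other 5 longer libraries and 2.12 in CT12 mouse 11. Dentate granule markers had a median of -0.92, and -0.50 without it. In that fit 1 of the 7 passed, Lct (-0.74, adjusted p = 0.0367), beside 131 lower calls among all 24089 genes. Calb1 and Plk5 went the other way on all 12 arrays (0.24 and 0.09), but not without CT12 mouse 11 (-0.24 and -0.32). The summed dentate level was 4.03 to 4.46 in the shorter group and 3.51 to 3.89 in the other 5 longer libraries. In CT12 mouse 11 the summed level was the highest, at 5.13. The median deviation of the dentate markers from their means was the lowest there, at -1.54, against -0.33 to 0.58 in the other libraries. The sum and the median thus disagree for that library. The part of these neuron markers in the values of the activity list was not tested.

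Of the higher genes outside the clock and cold lists, Pla2g4e, a phospholipase that makes N-acyl-ethanolamine precursors, was -3.12 to -2.00 in the shorter group (median -2.42) and -1.84 to -1.27 in the longer (median -1.44). The groups did not overlap. The difference was 1.05 ± 0.12 (SE), 2.07-fold higher (adjusted p = 0.014), and it passed in 8 of 12 omissions. Ada, adenosine deaminase, which removes adenosine, was -2.89, -2.65 and -2.95 at 30 h, -2.60, -2.25 and -2.75 at 36 h, -2.39, -2.41 and -2.28 at 42 h and -1.14, -1.27 and -1.40 at 48 h. The 3 libraries at 48 h carried most of the change, and those at 42 h overlapped with the shorter group. The difference was 0.87 ± 0.10 (SE, adjusted p = 0.0128), and 0.87 without CT12 mouse 11 (adjusted p = 0.0208). It did not pass in the deposited table or after quantile normalization. It was 1 of the 11 measured genes of adenosine turnover and receptors to pass, and their median was 0.08. Slamf9, a surface receptor of myeloid cells, was 0.85, Map3k9, a mixed-lineage kinase, 0.75, Mri1, of methionine salvage, 0.65, Lrrc29 0.55 and Mir9-3hg, the host transcript of a neuronal microRNA, 0.50 (adjusted p = 0.0404, 0.0496, 0.029, 0.0306 and 0.0244). The 3 Map3k9 probes ran from -0.01 to 0.75. These 5 passed in 2 to 4 of 12 omissions, and Slamf9 and Mri1 did not pass with the slide as a block (adjusted p = 0.0633 and 0.057).

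H2bc6, H3c15 and H3c14, among the 12 named lower genes with a symbol, encode histones, the proteins that package DNA. H2bc6 was 0.40, 0.17 and 0.49 at 30 h, -0.09, 0.10 and 0.19 at 36 h, -0.95, -0.85 and -0.90 at 42 h and -0.59, -0.53 and -1 at 48 h. Both longer times lay below every shorter library, and the largest step was from 36 to 42 h. The difference was -1.01 ± 0.10 (SE), 2.01-fold lower (adjusted p = 0.00801), which was lost only without CT6 mouse 7 (adjusted p = 0.0503). H3c15 was -0.94 ± 0.12 (SE, adjusted p = 0.0218) and H3c14 -0.78 ± 0.12 (SE, adjusted p = 0.0404, and 0.0595 with the slide as a block), neither with overlap. A further pair of the 41 lower genes, chosen after its values were seen, is H2bc4 (-0.43, adjusted p = 0.0306) and H2bc14 (-0.42, adjusted p = 0.0496). Histone genes have near-identical copies, so their probes may read several of them, and no histone list was set up.

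P4ha1 encodes a subunit of collagen prolyl 4-hydroxylase in the ER. Its signal was 1.36, 1.26 and 1.32 at 30 h, 0.59, 0.76 and 0.67 at 36 h, 0.22, 0.19 and 0.19 at 42 h and 0.21, -0.38 and 0.22 at 48 h. The -0.38 is CT12 mouse 11. The difference was -0.89 ± 0.10 (SE), 1.85-fold lower (adjusted p = 0.014), and without that library -0.79 with an adjusted p of 0.00227. Adam8, a membrane protease, was 0.27 to 1.24 in the shorter group (median 0.60) and -1.29 to -0.19 in the longer (median -0.35), a difference of -1.19 ± 0.17 (SE, adjusted p = 0.0254), or -1.04 without CT12 mouse 11. Serpina3g, a serine protease inhibitor, was -1.10 (adjusted p = 0.0453, and 0.057 with the slide as a block) with CT6 mouse 5 at 0.04 inside the shorter range. Noxred1 was -1.01 (adjusted p = 0.0128), Scin, an actin-severing protein, -0.86 (adjusted p = 0.0218), and Dok3, an adaptor of immune receptors, -0.86 (adjusted p = 0.0281), all with no overlap.

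A straight line over 30, 36, 42 and 48 h was then fitted, and its change from 30 to 48 h is given in log2 units. It used the same 12 arrays, so it is not a second test of the same change. The line passed for 158 genes (0.656%), of which 48 rose (0.199%) and 110 fell (0.457%), and 3868 genes had an unadjusted p under 0.05. No gene departed from a straight line at an adjusted p under 0.05 (0 by limma; 1198 at an unadjusted p under 0.05). The departure count was also 0 with the deposited table, 1 with the robust variance model, 2 with normexp, 3 after median centring and 6 without CT12 mouse 11. The means moved one way through all 4 times for 100 of the 158, and for 15.9% of all genes. The line was fitted to these same means, and calling favours one-way movement, so the shares are not a test of steady change. Without CT12 mouse 11 the line passed for 272 genes, 141 of the 158 among them, and without CT12 mouse 12 for 926 (450 rising, 476 falling). It passed for 15 genes without CT18 mouse 14, 44 without CT18 mouse 15, 2 without CT18 mouse 16, 62, 49 and 75 without CT0 mouse 1, 2 or 3, 50, 45 and 28 without CT6 mouse 5, 6 or 7, and 86 without CT12 mouse 10. With the slide as a block it passed for 270 (42.2% rising, against 30.4%), with median centring for 13 (15.4% rising) and with no filter for 27.

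The genes of the first comparison moved along the line as follows. Ciart changed by 1.76 ± 0.14 (SE, 3.38-fold, adjusted p = 0.00444), Ada by 1.46 ± 0.13 (adjusted p = 0.00523), Cirbp by 1.37 ± 0.15 (adjusted p = 0.00864) and Nr1d1 by 0.96 ± 0.10 (adjusted p = 0.00717). Hspa5 changed by -1.12 ± 0.11 (adjusted p = 0.00717), Sdf2l1 by -1.55 ± 0.14 (adjusted p = 0.00523), P4ha1 by -1.31 ± 0.14 (adjusted p = 0.00717) and Inhba by -1.08 ± 0.12 (adjusted p = 0.00886). Of the ER list 11 of 24 fell (median -0.56), beside 0.457% of all genes, and 1 with each array centred on its median. Among the 11 were Creld2, a disulfide isomerase-like protein (-0.67, adjusted p = 0.0395), and Dnajb11, a co-chaperone of BiP (-0.55, adjusted p = 0.0426, and 0.0553 without CT12 mouse 11). Of the heat shock list 3 of 19 fell: Chordc1 (-0.74), Dnaja1 (-0.57) and St13 (-0.52, the last pair both at adjusted p = 0.0395). With median centring 0 of the 19 fell. The ER count was 1 without CT18 mouse 16, 3 without CT18 mouse 14 and 6 to 14 without any other library.

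Of 20 measured glucocorticoid-responsive genes 4 rose along the line and 0 fell, beside 0.199% and 0.457% of all genes, and 17 were above 0 (median 0.44). With each array centred on its median 0 of the 20 rose. Glucocorticoids are adrenal hormones with a daily rise, and the genes of this list were chosen as responding to them. A part of these hormones in the values below was not tested. The 4 were Hif3a, a hypoxia-inducible factor (1.41 ± 0.22 SE, adjusted p = 0.0291), Sgk1, a kinase (1.11, adjusted p = 0.0397), Arrdc2, an arrestin-like protein (0.92 ± 0.13 SE, adjusted p = 0.0199), and Nfkbia, the inhibitor of NF-κB (0.77 ± 0.14 SE, adjusted p = 0.0476). Their means did not climb evenly. Arrdc2 was 1.84 ± 0.25 at 30 h, 1.63 ± 0.17 at 36 h, 1.72 ± 0.09 at 42 h and 2.84 ± 0.09 at 48 h (SD, n = 3), and Sgk1 was 2.62, 2.26, 2.31 and 3.84. The largest step was from 42 to 48 h for 14 of the 20 list members, and for 12589 of all 24089 genes. By library the median deviation over the 20 genes was 0.27, 0.43 and 0.41 at 48 h, and -0.31 to 0.16 in the other 9. In longer minus shorter darkness 0 of the 20 passed, with 17 above 0 and a median of 0.22. At an unadjusted p under 0.05, 8 of the 20 were higher and 0 lower, beside 1211 and 1443 of all 24089 genes. Fkbp5, another gene of the list, was -0.35 (adjusted p = 0.67), and -0.08 without CT12 mouse 11 (adjusted p = 0.748). Leaving out CT12 mouse 11 also gave 4 calls, but Nfkbia was lost (adjusted p = 0.0628) and Map3k6 was gained (adjusted p = 0.0261). Sgk1 did not pass with the slide as a block (adjusted p = 0.0555). The number of calls was 5 without CT12 mouse 12, 2 without CT12 mouse 10, 0 without CT18 mouse 14, CT18 mouse 16 or CT6 mouse 7 and 1 without each of the other 6 libraries. The Hif3a probes ran from -0.03 to 0.93 in longer minus shorter darkness.

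Of the other genes with the steepest lines, Foxo3, a transcription factor of the insulin pathway, rose by 1.30 ± 0.24 (SE, adjusted p = 0.0483), with probes from 0.08 to 0.94 in longer minus shorter darkness. Mdga1, a synaptic adhesion regulator, fell by 1.34 (adjusted p = 0.0193), from a mean of 3.43 ± 0.08 at 30 h to 2.03 ± 0.46 at 48 h (SD, n = 3). The low values at 48 h were not those of CT12 mouse 11 alone, since the call held without it (adjusted p = 0.00893). Dapk2, a death-associated kinase, rose by 1.13 (adjusted p = 0.0426), Etnk2, an ethanolamine kinase, by 1.12 (adjusted p = 0.0395), and Wfdc18 by 1.16 (adjusted p = 0.0352). Dapk2 and Etnk2 did not pass without CT12 mouse 11 (adjusted p = 0.0528 and 0.0524). 5033421B08Rik and Potegl rose by 1.86 and 1.53, each well above background on 5 of 6 shorter arrays. Nxnl2 passed too (adjusted p = 0.0317), but it was well above background on 3 of 6 shorter and 5 of 6 longer arrays, so no size is given. Ndst4, a heparan sulfate enzyme, was -1.07, Tmprss9, a serine protease, -1.15, Khdc3 -1.31 and Rnf32 -1.18. Serpina3c also fell (adjusted p = 0.0395), but it was not well above background on any longer array, and its shorter mean was at least 1.49-fold higher.

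**Figure D4:**
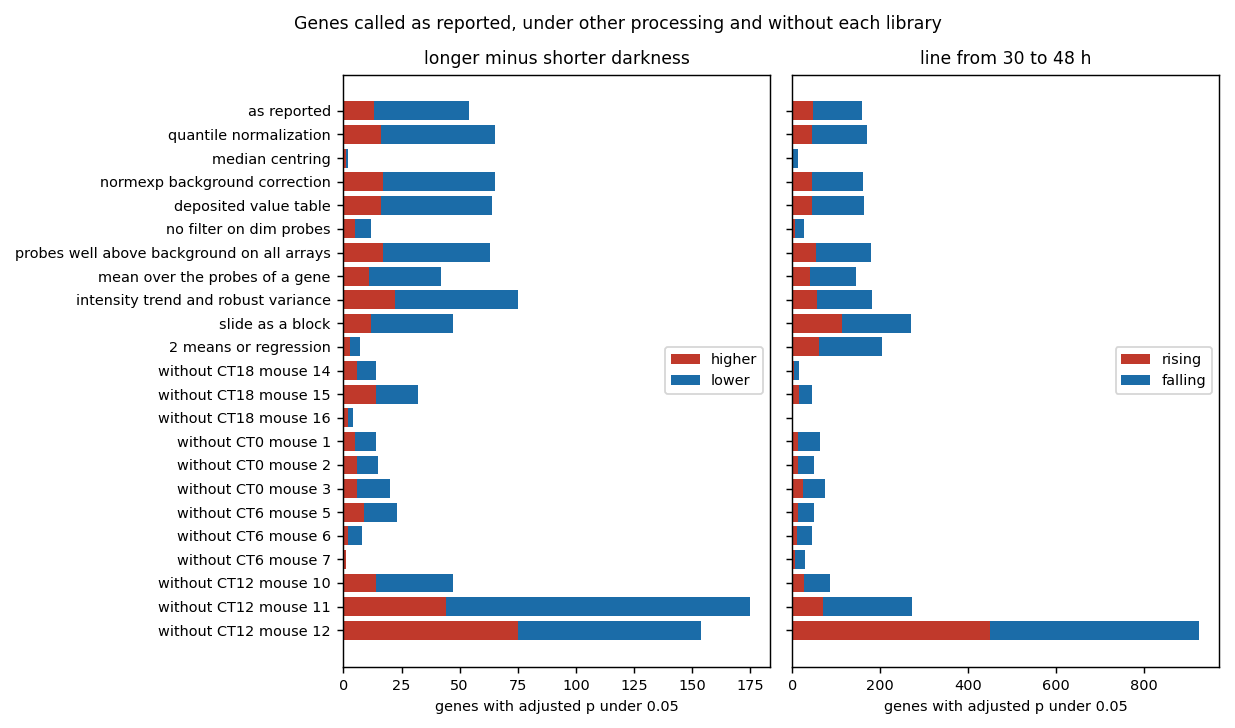
Number of genes at an adjusted p under 0.05 (bars, split by direction) for longer minus shorter darkness (left) and for the line from 30 to 48 h (right), as reported (54 and 158), under 10 other ways of processing and without each of the 12 libraries. The counts run from 1 to 175 on the left and from 2 to 926 on the right, and the scales differ.

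In the remaining lists 0 members passed in either comparison. These were cholesterol synthesis (18 measured, median of longer minus shorter 0.11), respiratory chain (20, 0.06), ribosomal proteins (19, 0.04), proteasome (22, 0.04), glutamate receptors (22, -0.05), GABA-A receptors (12, -0.14) and glucose and lactate transport (12, 0.04). In these lists the smallest p in longer minus shorter darkness belonged to Insig1, a brake on cholesterol synthesis (0.49 ± 0.14 SE, adjusted p = 0.211). The next was that of Slc2a1, the glucose transporter of the blood-brain barrier (0.24 ± 0.07 SE, adjusted p = 0.265). Its mean was 3.57 ± 0.13 at 48 h and 2.79 to 3.1 at the other times (SD, n = 3). Of 4 lipase genes that constant darkness is known to induce in peripheral tissue, 1 was measured, Clps (-0.01). No cell type marker passed in longer minus shorter darkness, and in the trend only Cldn5, a tight-junction protein of endothelium, did, and it fell (-0.71, adjusted p = 0.0354). Cldn5 also passed in longer minus shorter darkness without CT12 mouse 11 (-0.54, adjusted p = 0.0281).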

How the data were processed

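Each of 12 hippocampus RNA samples was hybridised to a 1-colour array, and per the file headers the deposited scanner files were made with Agilent Feature Extraction 10.7.3.1 and give processed intensity per spot, with flags (other values) for outliers, background and saturation. A series table of log2 values was also deposited by the authors; its exact normalization is not given in the sources used here, and it served as an alternative. From the intensity, log2 values minus each array's 75th percentile were computed, spots of a probe averaged, and probes kept that were well above background in all libraries of at least 1 circadian time (33965 of 55681). Of the probes of a gene the brightest on average was used, giving 24089 genes, 16093 with a symbol. A model with 4 time means was fitted with limma 3.58.1 (R 4.3.3) and Benjamini-Hochberg adjustment over all genes, with contrasts for the longer times minus the shorter, for a straight line over 18 h and for the departure from it. Calls had an adjusted p under 0.05. The scripts were tested on simulated data. Array number limits the precision.

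Named genes were all measured clock activators, repressors and D-box and ROR factors, up to 12 higher and 12 lower genes with a symbol by size, up to 8 rising and 8 falling by slope, and the 3 members of each other process list with the smallest p. Other list members named were chosen after their values were seen. The groups and lists were chosen with earlier results of these data known. Alternatives covered normalization, background, filter, probe choice, variance model, slide and each library left out. Promoter windows came from RefSeq (GRCm38.p6), and 10 of 12 higher and 26 of 35 lower genes with a symbol had one. Probe positions are those of the array design (mm9).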

Additional observations from a re-analysis of the deposited data

Results flagged for a closer look

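Of 92 groups of 6 libraries (46 genes, each in the shorter and the longer group), 4 held a library far from the others by a ratio, the gap to the nearest library over the whole range, that exceeded Dixon's critical value. For independent replicates of a single condition, chance gives about 1 in 20 groups. Each group here mixes circadian times, and the genes were read on the same libraries, so that rate does not hold here. CT12 mouse 11 was the lowest of the longer group for 3 genes. For P4ha1 it was at -0.38 with the others at 0.19 to 0.22 (ratio 0.95), for Dok3 at -1.08 with the others at -0.52 to -0.33 (ratio 0.753), and for Adam8 at -1.29 with the others at -0.47 to -0.19 (ratio 0.749). All 3 genes also fell without that library, by 0.79, 0.75 and 1.04 on the log2 scale (limma adjusted p = 0.00227, 0.0086 and 0.0076). CT0 mouse 3 was the lowest of the shorter group for Serpina3g, at -0.27 with the others at 0.17 to 0.38 (ratio 0.676).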

How the results depend on the processing

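Of the counts of genes, the 54 of longer minus shorter darkness moved to 2 with median centring, 12 with no filter on dim probes and 7 with 2 means, and lay between 42 and 75 under the other 7 alternatives. Leaving out 1 library gave 1 to 175. The 158 of the straight line moved to 13 with median centring, 27 with no filter and 270 with the slide as a block, lay between 144 and 204 under the other 7, and ran from 2 to 926 with 1 library left out. The 0 departures from a line moved to 3 with median centring, 2 with normexp and 1 with the intensity trend and robust variance, and ran from 0 to 6 with 1 library left out. The cause was not tested. With no filter 36041 genes were adjusted over, and 2540 of them had an unadjusted p under 0.05 in longer minus shorter darkness (limma), against 2654 of 24089. With the median centring the median difference of all genes was 0.06. For named genes no alternative reversed a call; 205 of their values lost the threshold and 20 gained it under the processing alternatives, and 427 and 33 with 1 library left out. The slide block, which pairs the arrays of 1 slide, gave 47 and 270 calls; mouse numbers are not shared between groups. Dim genes such as Serpina3c give a bound alone.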

Other observations

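Cell type markers beyond those described gave values in the longer minus shorter comparison with no call. Microglia markers were below 0 for 8 of 8 (median -0.16, and -0.04 without CT12 mouse 11) and ependymal markers for 4 of 4 (median -0.31, and -0.35 without it). Oligodendrocyte markers were above 0 for 7 of 8 (median 0.11, and 0.05 without it), and cerebellum markers for 8 of 8 (median 1.26, and 0.31 without it). Thalamus markers were above 0 for 6 of 6 (median 0.26, and 0.38 without it), but 1 library stood apart: in CT12 mouse 10 they were 1.23 above their means, against -0.34 to 0.14 in the other 11. Astrocyte and inhibitory neuron markers had medians of 0.09 and 0.00. Of the process lists with no call, respiratory chain genes were above 0 for 19 of 20 and cholesterol synthesis genes for 16 of 18, with medians of 0.06 and 0.11, beside 11846 of all 24089 genes.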
